A study of Rattus norvegicus with 14 samples.

Results

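The 69 genes described here carry the names of proteins of the mitochondrial ribosome, the ribosome that translates the messages of mitochondrial DNA. They were all the rows whose symbol began with Mrpl or Mrps followed by a digit, 69 of the 17312 genes in the deposited tables. By the places of their products in the mammalian ribosome, 43 belong to the large subunit and 25 to the small subunit. Mrps30 and Mrps18a carry names of the small subunit but encode proteins of the large one, and were counted there. Mrps36, now called Kgd4, was counted apart from both, because its product is known as a part of the 2-oxoglutarate dehydrogenase complex. Of the 68 ribosomal members, 42 have a bacterial counterpart and 26 occur in mitochondrial ribosomes without one.

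The cells were RASMC, aortic smooth muscle cells of the rat bought from Lonza and grown in culture, and their polyadenylated RNA was sequenced. Every group was first kept without serum for 24 h. There were 3 libraries of cells given JQ1 at 500 nM for 3 h and then PDGF for 2 h, and 3 of cells given PDGF alone for 2 h. A further 3 libraries came from cells given the same JQ1 pretreatment and then PDGF for 24 h, 3 from PDGF alone for 24 h, and 2 from unstimulated cells (0 h). The labels give the PDGF dose as 925 ng/ml, which could not be checked here. PDGF, platelet-derived growth factor, makes smooth muscle cells divide. JQ1 occupies the bromodomains of BET proteins and so keeps them off acetylated histones. The design compares an early and a late time after PDGF with unstimulated cells, and cells with and without BET inhibition at each time. Unstimulated cells at later times and cells with JQ1 alone were not analysed here, so PDGF and hours in culture cannot be told apart, and a difference with JQ1 cannot be assigned to the response to PDGF. Letters in the sample titles run from E to H where JQ1 was given and from A to D elsewhere, and their meaning, if any, cannot be told apart from JQ1.

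The mitochondrial ribosome makes a small set of hydrophobic subunits of the respiratory chain and of the ATP synthase. Its RNAs come from mitochondrial DNA, whereas all of its proteins are encoded in the nucleus, made in the cytosol and imported. The proteins with bacterial counterparts line the decoding centre, the peptidyl transferase centre and the subunit interface, and the mitochondria-specific ones lie mostly on the outer surface. The transcription factors NRF1, GABP (of the ETS family) and YY1 are known to bind upstream of many nuclear genes for mitochondrial proteins.

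Levels are normalised FPKM (fragments scaled by transcript length and by the size of the library) as deposited, on a scale that brings synthetic spike-in RNAs together between libraries. The labels say that the spike-ins were dosed by the RNA of a set number of cells in each group, and in bulk RNA fewer cells and less RNA per cell cannot be told apart. A log2 difference is the difference of group means of log2(normalised FPKM + 1), given with the SE of 1 limma fit over the 5 groups, and a gene was called at a Benjamini-Hochberg adjusted p under 0.05 over all 10133 genes tested. The whole table moved between groups on this scale: over all genes tested the median log2 difference was 0.01 between PDGF at 2 h and unstimulated cells. It was 0.41 between PDGF at 24 h and unstimulated cells, and 0.40 between the later and the earlier PDGF time. It was −0.29 for JQ1 plus PDGF against PDGF at 2 h and −0.48 at 24 h. Counts of called members are therefore also given on a median-centred scale, which divides the unnormalised FPKM by size factors and on which these medians lie between −0.05 and 0.05. Nothing in the labels says that the libraries of a group came from separate cultures, so the p-values measure the spread between these libraries, which may be technical. Libraries are named by the digit that ends their column. PDGF 2 h library 1 stood apart: 7 members lay more than 2-fold from their group's median in it, against 2 in PDGF 24 h library 0 and 0 or 1 in each other library, and it had the fewest genes above 0 (9901, against up to 11503). Results for the members that rest on those libraries are given with and without them, while the genes of the other lists are given from all libraries. The smooth muscle label was checked on 4 contractile marker genes, whose summed unnormalised FPKM was 9911 to 10310 in unstimulated cells. The endothelial gene Cdh5 and the leukocyte gene Ptprc were listed at 0 in all 14 libraries, but other markers on those lists were not. In unstimulated cells the endothelial gene Eng had 42.4 and 47.2 normalised FPKM, and the leukocyte gene Cd14 had 12.8 and 16.6. The fibroblast genes Lum (110 and 116) and Pdgfra (9.22 and 9.70) were also present. The endothelial sums given below are mostly Eng, and the leukocyte sums come from Cd14 and Cd68.

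Of the 69 members, 66 had at least 1 normalised FPKM in at least 2 libraries and were tested. Mrpl53 was listed at 0 in all 14 libraries, Mrpl36 in 12 and Mrpl30 in 11, and these 3 were not tested. The mean level of the tested members over all libraries had a median of 29.8 normalised FPKM, against 14.2 for all genes tested. FPKM are scaled by transcript length, so the levels of different genes can be set side by side. The highest were Mrpl17 (183 normalised FPKM), Mrpl54 (136), Mrps21 (106), Mrpl13 (96.9) and Mrpl52 (92.7). Among the tested members the lowest were Mrpl1 (1.66), Mrpl40 (3.79), Mrps28 (6.36), Mrpl50 (8.34) and Mrpl47 (9.63). The level of Mrpl1 in PDGF 2 h library 1 was 14.5 normalised FPKM, whereas its other 13 libraries lay between 0.0759 and 1.49, so its mean rests on that library. Named copies or pseudogenes are annotated by RefSeq for 24 of the members and have no rows in the tables, so reads that such copies share with these genes make their levels uncertain.

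Promoter sequences were looked up for the members, because 33 of 66 were called lower with JQ1 at 2 h (34.0% of all genes tested). After median centring 15 were (21.5% of all genes tested). RefSeq promoters of assembly GRCr8, which span 250 bases before to 50 after each gene's start, were found for 52 members with a single entry. Another 2 members (Mrpl14 and Mrps21) had 2 entries and were left out, and 15 had none. The 4 sequences below were chosen after the values were seen and belong to members on which the JQ1 results turn. Mrpl45 and Mrpl18 were lower with JQ1 at both times, while Mrps18a and Mrps10 had JQ1 differences at 24 h well above those at 2 h. Mrpl45 lies on the plus strand (chr10:82804789-82805088), as does Mrpl18 (chr1:50384702-50385001). Mrps18a (chr9:22367331-22367630) and Mrps10 (chr9:21122404-21122703) lie on the minus strand. All are written 5′ to 3′ on the gene's own strand, and capitals mark matches to the motifs searched, which were GCGCA with any base and GCGC after it for NRF1, CCGGAAG for ETS factors, AAGATGGC for YY1 and CACGTG for the E-box, each on both strands.
Mrpl45: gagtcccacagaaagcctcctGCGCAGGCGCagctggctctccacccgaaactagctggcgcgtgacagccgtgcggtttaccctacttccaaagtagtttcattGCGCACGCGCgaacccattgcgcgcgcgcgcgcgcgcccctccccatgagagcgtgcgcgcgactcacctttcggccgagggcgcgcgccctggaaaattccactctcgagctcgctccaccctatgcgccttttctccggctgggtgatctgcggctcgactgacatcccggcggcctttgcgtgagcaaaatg
Mrpl18: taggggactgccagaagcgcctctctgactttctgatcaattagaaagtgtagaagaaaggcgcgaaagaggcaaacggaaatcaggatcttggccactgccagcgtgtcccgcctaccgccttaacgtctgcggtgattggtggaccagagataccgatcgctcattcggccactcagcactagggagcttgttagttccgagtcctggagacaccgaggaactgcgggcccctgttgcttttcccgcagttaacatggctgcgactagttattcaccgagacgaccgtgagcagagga
Mrps18a: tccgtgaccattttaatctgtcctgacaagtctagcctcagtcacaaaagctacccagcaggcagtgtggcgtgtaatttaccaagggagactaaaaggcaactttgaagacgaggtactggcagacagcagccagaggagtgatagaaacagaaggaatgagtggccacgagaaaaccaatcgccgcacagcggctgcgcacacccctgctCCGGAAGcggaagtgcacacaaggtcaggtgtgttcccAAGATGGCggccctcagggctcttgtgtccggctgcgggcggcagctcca
Mrps10: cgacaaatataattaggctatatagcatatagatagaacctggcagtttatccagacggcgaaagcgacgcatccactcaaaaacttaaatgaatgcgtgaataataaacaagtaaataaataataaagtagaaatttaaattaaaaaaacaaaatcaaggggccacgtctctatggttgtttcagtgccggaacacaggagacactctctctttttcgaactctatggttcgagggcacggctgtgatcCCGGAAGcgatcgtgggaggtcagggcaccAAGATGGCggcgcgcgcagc
The Mrpl45 promoter held 2 NRF1 matches, the Mrps18a and Mrps10 promoters each held an ETS and a YY1 match, and the Mrpl18 promoter held no match to any of the 4 motifs. The ETS and YY1 motifs can share letters, and in 0 of the 52 member promoters matches to different motifs did. The YY1 motif was in 14 of the 52 member promoters (26.9%), against 6.01% of the promoters of genes tested and 3.44% of all 27455 promoters. The ETS motif was in 17 (32.7%), against 18.8% and 9.22%, and the NRF1 motif in 7 (13.5%), against 10.9% and 4.70%. The E-box was found in 6 (11.5%), against 9.45% and 6.65%. A match is a description of the letters and not a measured site. The YY1 letters contain ATG, and the window runs to 50 bases after the start. Whether such matches cover a start codon was not examined. Among the 52 promoters, 18 (34.6%) faced the start of another gene within 1000 bases, against 1332 of 7733 promoters of genes tested (17.2%). One such pair holds 2 members, Mrpl46 and Mrps11, whose starts are 234 bases apart.

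Summed over the 69 members, the normalised FPKM was 2492 and 2616 in the 2 unstimulated libraries, 2352, 2305 and 2731 with PDGF at 2 h and 3688, 3444 and 3596 with PDGF at 24 h. All 3 PDGF 24 h libraries lay above every library at 0 h and 2 h, while the PDGF 2 h libraries fell on both sides of the unstimulated ones. With JQ1 before PDGF the sum was 1773, 1768 and 1948 at 2 h, below all 3 libraries with PDGF alone. At 24 h it was 3382, 2834 and 2673 with JQ1, again below all 3 libraries with PDGF alone. As a share of the unnormalised FPKM of all genes, which does not depend on the spike-ins, the order at 24 h was the other way round. The members made up 0.510, 0.520 and 0.497% with JQ1 plus PDGF at 24 h, against 0.442, 0.459 and 0.468% with PDGF at 24 h. At 2 h the share was lower with JQ1 on this measure too, at 0.302, 0.285 and 0.311%, against 0.384, 0.328 and 0.372% with PDGF. In unstimulated cells it was 0.461 and 0.464%, above every library at 2 h. This share also moves with the summed FPKM of all other genes. On the median-centred scale the members summed to 2246, 2105 and 2307 with JQ1 at 2 h, against 2518, 2178 and 2405 with PDGF, which overlapped. The unstimulated libraries (2623 and 2511) overlapped with PDGF at 2 h too. At 24 h the JQ1 libraries (3125, 3258 and 2929) lay above those with PDGF (2654, 2607 and 2584).

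**Figure D1:**
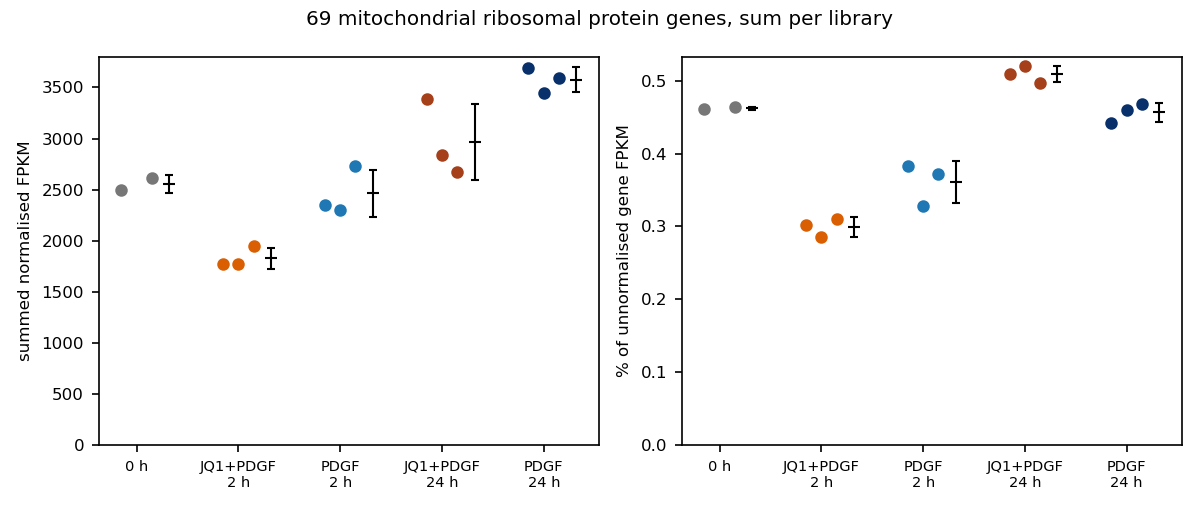
Summed level of the 69 mitochondrial ribosomal protein genes in each library as normalised FPKM (left) and as a percentage of the unnormalised FPKM of all genes (right); points are libraries and bars show the group mean ± SD (n = 2 unstimulated, n = 3 in the other groups). JQ1 plus PDGF lies below PDGF at 24 h on the left (2673 to 3382 against 3444 to 3688) and above it on the right (0.497 to 0.520% against 0.442 to 0.468%).

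Few members were called after 2 h of PDGF. Against unstimulated cells 2 of the 66 were called higher (17.7% of all genes tested were) and 7 lower (12.7% of all genes tested), and the median log2 difference of the members was −0.16, against 0.01 for all genes. The 7 lower were Mrpl18, Mrpl2, Mrpl32, Mrpl40, Mrps12, Mrps17 and Mrps31, and the 2 higher were Mrpl54 and Mrps7. The ranges of the groups did not overlap for 7 members above and 14 below the unstimulated libraries (26.4 and 24.1% of all genes tested), and after median centring for 8 above and 17 below (27.1 and 29.9%). Mrpl18, a protein of the central protuberance of the large subunit, had 31.6, 23.5 and 30.5 normalised FPKM with PDGF at 2 h, against 43.0 and 41.9 in unstimulated cells. All 3 PDGF libraries were below both unstimulated ones, with a log2 difference of −0.57 ± 0.14 (limma, adjusted p = 0.00655). Mrps12, whose bacterial counterpart lies at the decoding centre, had 35.8, 19.4 and 29.7 normalised FPKM, against 55.4 and 40.9 in unstimulated cells, also without overlap (−0.77 ± 0.22, adjusted p = 0.0171). Mrpl2, whose bacterial counterpart is needed at the peptidyl transferase centre, had 9.44, 7.59 and 17.1 normalised FPKM, against 22.5 and 22.4 in unstimulated cells (−1.0 ± 0.29, adjusted p = 0.0184). Mrpl54, a mitochondria-specific protein, had 109, 123 and 158 normalised FPKM, all above the 77.3 and 107 of unstimulated cells (0.49 ± 0.16, adjusted p = 0.0307).

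None of these 9 calls held when each library was left out in turn. Without PDGF 2 h library 1 the calls were 2 higher and 6 lower, and they shared with the full set Mrpl54 above and Mrpl18 and Mrps31 below. The differences without it were −0.77 for Mrpl2, −1.14 for Mrpl40, −0.54 for Mrpl32, −0.53 for Mrps12, −0.36 for Mrps17 and 0.42 for Mrps7, none of them called. Without unstimulated library 0 there were 0 calls higher and 2 lower, and Mrpl18 (−0.55) and Mrpl54 (0.26) were not called, while without unstimulated library 1 there were 3 lower. Mrpl32 (−0.57), Mrps12 (−0.56) and Mrps7 (0.27) were not called without unstimulated library 0 either. Leaving out either unstimulated library ended the calls of Mrpl2, Mrpl40, Mrps17 and Mrps31, and Mrps31 was at −1.07 without library 0 and −0.83 without library 1. Without PDGF 2 h library 2 there were 0 calls higher, with Mrps7 at 0.41 and Mrpl54 at 0.35, and without library 0 there were 4. The median of the members was −0.04 without PDGF 2 h library 1, against −0.03 for all genes. After median centring 3 members were called higher (20.4% of all genes tested) and 12 lower (19.4%), all 9 calls above among them.

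After 24 h of PDGF more members were above unstimulated levels, by about as much as the whole table. Of the 66, 26 were called higher (37.7% of all genes tested) and 0 lower (4.85%), and their median log2 difference was 0.43, against 0.41 for all genes. The ranges lay apart and higher for 49 members (61.1% of all genes tested) and lower for 1 (9.14%), but after median centring for 13 (29.4%) and 13 (28.1%). After median centring 3 were called higher (14.8% of all genes tested) and 2 lower (13.4%), with a median of −0.01 against 0.00, and Mrpl3, at 0.15 on the normalised scale, was at −0.30 there. By limma 0 members were lower at an unadjusted p under 0.05 on the normalised scale. Mrpl17, the member with the highest mean level, had 256, 238 and 249 normalised FPKM with PDGF at 24 h, against 132 and 135 in unstimulated cells. The groups were far apart, with a log2 difference of 0.88 ± 0.12 (limma, adjusted p = 4.95e-05). Mrps7, of the head of the small subunit, had 117, 109 and 109 normalised FPKM, against 50.9 and 67.3 in unstimulated cells (0.92 ± 0.17, adjusted p = 0.000464). Mrpl38, a mitochondria-specific protein of the large subunit, had 36.1, 26.3 and 30.5 normalised FPKM, against 14.3 and 18.7 (0.87 ± 0.18, adjusted p = 0.00140). These 3 genes were the ones called higher on both scales, and they passed with any single library left out.

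The number of members called at 24 h depended on single libraries. It was 7 without unstimulated library 0, 15 without PDGF 24 h library 0 and 16 without PDGF 24 h library 2, and the 15 were all among the 26. Mrps28 had the largest difference, with 16.6, 7.62 and 7.63 normalised FPKM, against 2.56 and 4.24 in unstimulated cells (1.34 ± 0.44, limma adjusted p = 0.0242). PDGF 24 h library 0 was the highest of them, and the call was lost without it (1.0) and without unstimulated library 0 (1.06). Mrps16, of the small subunit, had 122, 93.9 and 96.9 normalised FPKM, against 46.2 and 68.1 (0.87 ± 0.21, adjusted p = 0.00346), and its difference was 0.60 and not called without unstimulated library 0. Between these same groups all 4 smooth muscle markers were called lower (1224 to 1466 summed unnormalised FPKM with PDGF at 24 h, against 9911 to 10310 at 0 h). The 5 endothelial markers summed to 90.9 to 104, against 45.4 to 46.5, with Cdh5 at 0, and the 3 leukocyte markers to 36.9 to 52.9, against 13.8 to 17.6, with Ptprc at 0. Of the leukocyte genes Cd14 was called higher (mean of 57.9 normalised FPKM at 24 h, against 14.7) and Cd68 was not called (0.633, against 0.924). The part of all these markers in the members' differences was not tested.

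On the normalised scale most members were higher after 24 h of PDGF than after 2 h, and after median centring 15 of 66 were called higher. At 24 h 42 of 66 members (63.6%) were called higher than at 2 h (44.5% of all genes tested) and 0 lower (11.8%), with a median log2 difference of 0.58, against 0.40 for all genes. The ranges lay apart and higher at 24 h for 46 members (46.7% of all genes tested) and lower for 0 (12.9%), and after median centring for 17 (30.1%) and 8 (28.1%). On the median-centred scale the 15 called higher (26.6% of all genes tested) stood beside 5 lower (25.8%), with a median of 0.18 against 0.05, and all 15 were among the 42. By limma 0 were lower at an unadjusted p under 0.05 on the normalised scale, and 1 was called lower without library 2 of either time. Mrpl2 had 46.3, 33.6 and 32.6 normalised FPKM at 24 h, against 9.44, 7.59 and 17.1 at 2 h. Every 24 h library was far above the highest 2 h library, with a log2 difference of 1.69 ± 0.26 (limma, adjusted p = 8.15e-05). Mrpl49, a mitochondria-specific protein, had 95.5, 64.1 and 78.4 normalised FPKM at 24 h, against 34.4, 28.9 and 23.4 at 2 h (1.43 ± 0.19, adjusted p = 1.71e-05). Mrpl32, which is known to be cut by an inner membrane protease before it joins the ribosome, had 69.1, 61.8 and 67.9 normalised FPKM, against 37.1, 24.4 and 33.8 at 2 h (1.06 ± 0.20, adjusted p = 0.000436). In all 3 genes the times did not overlap. Mrpl10, of the stalk base, had 35.6, 34.9 and 35.1 normalised FPKM at 24 h, against 17.8, 14.5 and 21.6 at 2 h (0.95 ± 0.17, adjusted p = 0.000230).

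Of the 7 members called lower at 2 h against 0 h, Mrpl40, Mrpl2, Mrps31, Mrpl32, Mrps12 and Mrpl18 were among the 15 called higher at 24 h against 2 h on both scales. The PDGF 2 h libraries enter both comparisons, so these values are not independent. Mrpl18 averaged 42.4 ± 0.775 normalised FPKM in unstimulated cells (SD, n = 2), 28.5 ± 4.42 at 2 h and 48.5 ± 1.74 at 24 h (SD, n = 3 each). Mrpl40 had 6.97 and 5.55 at 0 h, 2.06, 0.203 and 2.54 at 2 h and 6.5, 6.4 and 8.16 normalised FPKM at 24 h, and its unnormalised value in PDGF 2 h library 1 was listed at 0. Without PDGF 2 h library 1 the calls at 24 h against 2 h numbered 37, of which 34 were among the 42, and without PDGF 24 h library 0 they numbered 35, of which 32 were. Mrpl22 was called (0.96), but not without PDGF 2 h library 1 (0.41) or without PDGF 24 h library 1 (0.92) or 2 (0.93). Between the same groups all 4 smooth muscle markers were called lower (1224 to 1466 summed unnormalised FPKM at 24 h, against 10760 to 11410 at 2 h). The endothelial markers summed to 90.9 to 104, against 42.5 to 55.2, with Cdh5 at 0, and the leukocyte markers to 36.9 to 52.9, against 17.7 to 22.6, with Ptprc at 0. Of the leukocyte genes Cd14 was called higher (mean of 57.9 normalised FPKM at 24 h, against 19.4) and Cd68 lower (0.633, against 2.60). The part of all these markers in the members' differences was not tested.

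Of the mitochondrial ribosomal protein genes, 33 were lower at 2 h when JQ1 preceded PDGF. These 33 of 66 members were called lower than with PDGF alone (34.0% of all genes tested were), and 0 were called higher (7.24%), with a median log2 difference of −0.49, against −0.29 for all genes. The ranges lay apart and lower for 35 members (38.1% of all genes tested) and higher for 2 (8.99%), and after median centring for 16 (23.2%) and 4 (22.0%). On the median-centred scale 15 were called lower (21.5% of all genes tested) and 5 higher (20.1%), with a median of −0.18 against 0.00. All 15 lower ones were among the 33. At an unadjusted level the count higher on the normalised scale was 1 at p under 0.05 by limma, and 2 were called higher without PDGF 2 h library 0.

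Mrpl45, which tethers the mammalian mitochondrial ribosome to the inner membrane and whose promoter is shown above, had 7.72, 8.85 and 8.43 normalised FPKM with JQ1 plus PDGF at 2 h, against 19.6, 16.6 and 26.1 with PDGF. Every JQ1 library was far below the lowest PDGF library, and the log2 difference was −1.20 ± 0.17 (limma, adjusted p = 7.31e-05). Mrpl27, whose bacterial counterpart reaches into the peptidyl transferase centre, had 25.1, 46.4 and 46.2 normalised FPKM with JQ1, against 80.9, 85.4 and 93.9 (−1.17 ± 0.18, adjusted p = 0.000138). Mrpl37, a mitochondria-specific protein, had 17.0, 11 and 16.7 normalised FPKM with JQ1, against 35.4, 28.5 and 38.2 (−1.16 ± 0.18, adjusted p = 0.000117). In both the groups lay apart. Mrpl3, whose bacterial counterpart is among the first proteins to bind the large subunit RNA, had 15.7, 17.7 and 19.7 normalised FPKM with JQ1, against 31, 41.6 and 41.2 (−1.05 ± 0.14, adjusted p = 2.62e-05). Mrpl34, also with a bacterial counterpart, had 15.7, 18.2 and 23.2 normalised FPKM with JQ1, against 39.6, 51.9 and 30.7 (−1.04 ± 0.17, adjusted p = 0.000227). These 5 genes were called lower on both scales and with any single library left out, and each JQ1 library lay below every PDGF library.

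The other members called lower at 2 h on both scales were Mrpl15, Mrpl35, Mrpl38, Mrps7, Mrps11, Mrps14, Mrps15, Mrps18a, Mrps18b and Mrps34. Mrpl12, a stalk protein that in human cells is also known to bind the mitochondrial RNA polymerase, was lower by a smaller amount, with 32.4, 38.0 and 39.0 normalised FPKM, against 46.0, 51.5 and 53.0 (−0.45 ± 0.11, limma adjusted p = 0.00418; on the median-centred scale −0.13 and adjusted p = 0.181). Its groups did not overlap. Mrps22, a small-subunit protein whose human gene is a known disease gene, had 26.7, 22.6 and 26.2 normalised FPKM, against 22.0, 25.7 and 25.1, with a log2 difference of 0.05 that was not called (adjusted p = 0.794). Mrps36, which is not ribosomal, was called lower at 2 h (−0.81, adjusted p = 0.00414). Without PDGF 2 h library 1 there were 31 calls, of which 28 were among the 33, and the 5 lost were Mrpl4, Mrpl44, Mrpl51, Mrpl55 and Mrps30. Between the same groups the endothelial markers summed to 21.2 to 22.8 unnormalised FPKM with JQ1, against 42.5 to 55.2 with PDGF, with Cdh5 at 0. The leukocyte markers summed to 6.46 to 10.8, against 17.7 to 22.6, with Ptprc at 0. The smooth muscle markers summed to 16590 to 16900, against 10760 to 11410, but did not all move the same way. Of these 4 genes 1 was called higher and 1 lower (7.24 and 34.0% of all genes tested). After median centring 2 were higher and 1 lower (20.1 and 21.5%). The part of all these markers in the members' differences was not tested.

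**Figure D2:**
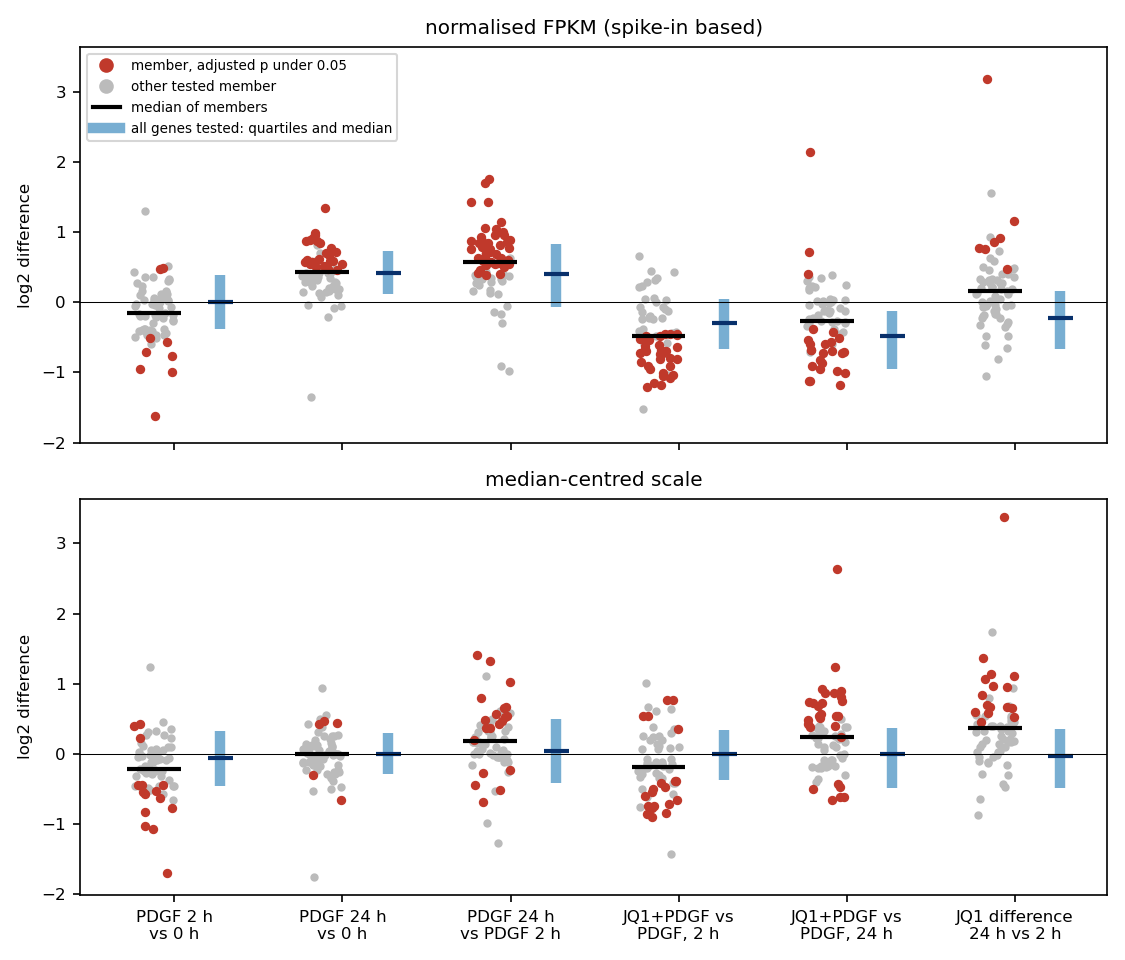
Log2 difference of each tested member (points, 66 per column) in each comparison on the normalised FPKM scale and on the median-centred scale; called members are red, and blue marks show the quartiles and median of all genes tested. The members' median lies below that of all genes for JQ1 at 2 h on both scales (−0.49 against −0.29, and −0.18 against 0.00), and above it for JQ1 at 24 h (−0.27 against −0.48, and 0.25 against 0.00).

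After 24 h of PDGF fewer members were called lower with JQ1 than after 2 h, and their median changed sign with the scale. With JQ1 22 of 66 (33.3%) were called lower than with PDGF alone (48.5% of all genes tested) and 3 higher (4.61%), with a median log2 difference of −0.27, against −0.48 for all genes, and with a median of 0.25, against 0.00, on the median-centred scale. There 22 members were called higher (23.1% of all genes tested) and 6 lower (25.8%). Lower on both scales were Mrpl18, Mrpl20, Mrpl37, Mrpl45, Mrps15 and Mrps16, and higher on both were Mrpl41, Mrps10 and Mrps26. On the normalised scale the ranges lay apart and lower for 27 members (57.4% of all genes tested) and higher for 6 (6.99%). After median centring the direction turned, with 10 lower (33.6%) and 32 higher (31.7%).

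Mrpl18 had 22.4, 22.6 and 20.2 normalised FPKM with JQ1 plus PDGF at 24 h, against 50.5, 47.9 and 47.2 with PDGF. No JQ1 library came near the lowest PDGF library, and the log2 difference was −1.12 ± 0.13 (limma, adjusted p = 2.19e-06; −0.61 on the median-centred scale, adjusted p = 0.00244). Its promoter, shown above, held none of the motifs searched. Mrps16, whose human gene is known to cause a respiratory chain deficiency when mutated, had 50.9, 42.6 and 42.3 normalised FPKM with JQ1, against 122, 93.9 and 96.9 (−1.18 ± 0.18, adjusted p = 6.88e-05). Mrps15, a small-subunit protein with a bacterial counterpart that binds the ribosomal RNA early, had 13.5, 12.4 and 12.7 normalised FPKM with JQ1, against 24.9, 29.5 and 33.9 (−1.13 ± 0.17, adjusted p = 4.19e-05). Both genes were also apart without overlap. Mrpl20 had 77.1, 52.4 and 56.6 normalised FPKM with JQ1, against 126, 114 and 118 (−0.95 ± 0.13, adjusted p = 1.94e-05). Mrpl45 had 15.8, 13.8 and 11.2 with JQ1, against 31.9, 24.6 and 27 normalised FPKM (−0.99 ± 0.17, adjusted p = 0.000194). The calls of these 5 genes and of Mrpl37 (−1.0) held with any single library left out. The Mrpl18 and Mrps15 levels with JQ1 at 24 h were also below both unstimulated libraries (43.0 and 41.9 for Mrpl18 and 20.1 and 20.6 normalised FPKM for Mrps15).

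Mrps10, a protein of the head of the small subunit, had the largest difference of any member with JQ1 at 24 h, with 44.2, 33.5 and 37.5 normalised FPKM, against 1.20, 17.0 and 16.5 with PDGF. All 3 JQ1 libraries were above every other library of the study, and PDGF 24 h library 0 was far below the other libraries of its group. The log2 difference was 2.15 ± 0.64 (limma, adjusted p = 0.0101), and 1.14 (adjusted p = 0.0420) without that library. Mrpl41, a mitochondria-specific protein, had 129, 106 and 97.1 normalised FPKM with JQ1, against 42.4, 79.7 and 86.5 (0.72 ± 0.26, adjusted p = 0.0285). PDGF 24 h library 0 was again the lowest, and without it the difference was 0.40 (adjusted p = 0.176). The call of Mrpl41 was also lost without JQ1 plus PDGF 24 h library 0 (0.61) or library 1 (0.75). Mrps26 had 59.7, 44.7 and 43.9 normalised FPKM with JQ1, against 38.9, 37.9 and 33.4 (0.41 ± 0.15, adjusted p = 0.0303), a call lost without JQ1 plus PDGF 24 h library 0 (0.27) and without PDGF 24 h library 1 (0.43) or 2 (0.34). Leaving out JQ1 plus PDGF 24 h library 0 left 1 member called higher. Without PDGF 24 h library 0 the lower calls numbered 19, all among the 22. Between the same groups the fibroblast markers summed to 4.89 to 6.95 unnormalised FPKM with JQ1, against 93.4 to 113 with PDGF, and the smooth muscle markers, 4 of 4 called lower, to 359 to 428, against 1224 to 1466. The endothelial markers summed to 20.4 to 24.7, against 90.9 to 104, with Cdh5 at 0, and the leukocyte markers to 9.53 to 17.1, against 36.9 to 52.9, with Ptprc at 0. The other 2 leukocyte genes moved in opposite directions. Cd14 was called lower (mean of 4.20 normalised FPKM with JQ1, against 57.9) and Cd68 higher (7.77, against 0.633). The part of all these markers in the members' differences was not tested.

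**Figure D3:**
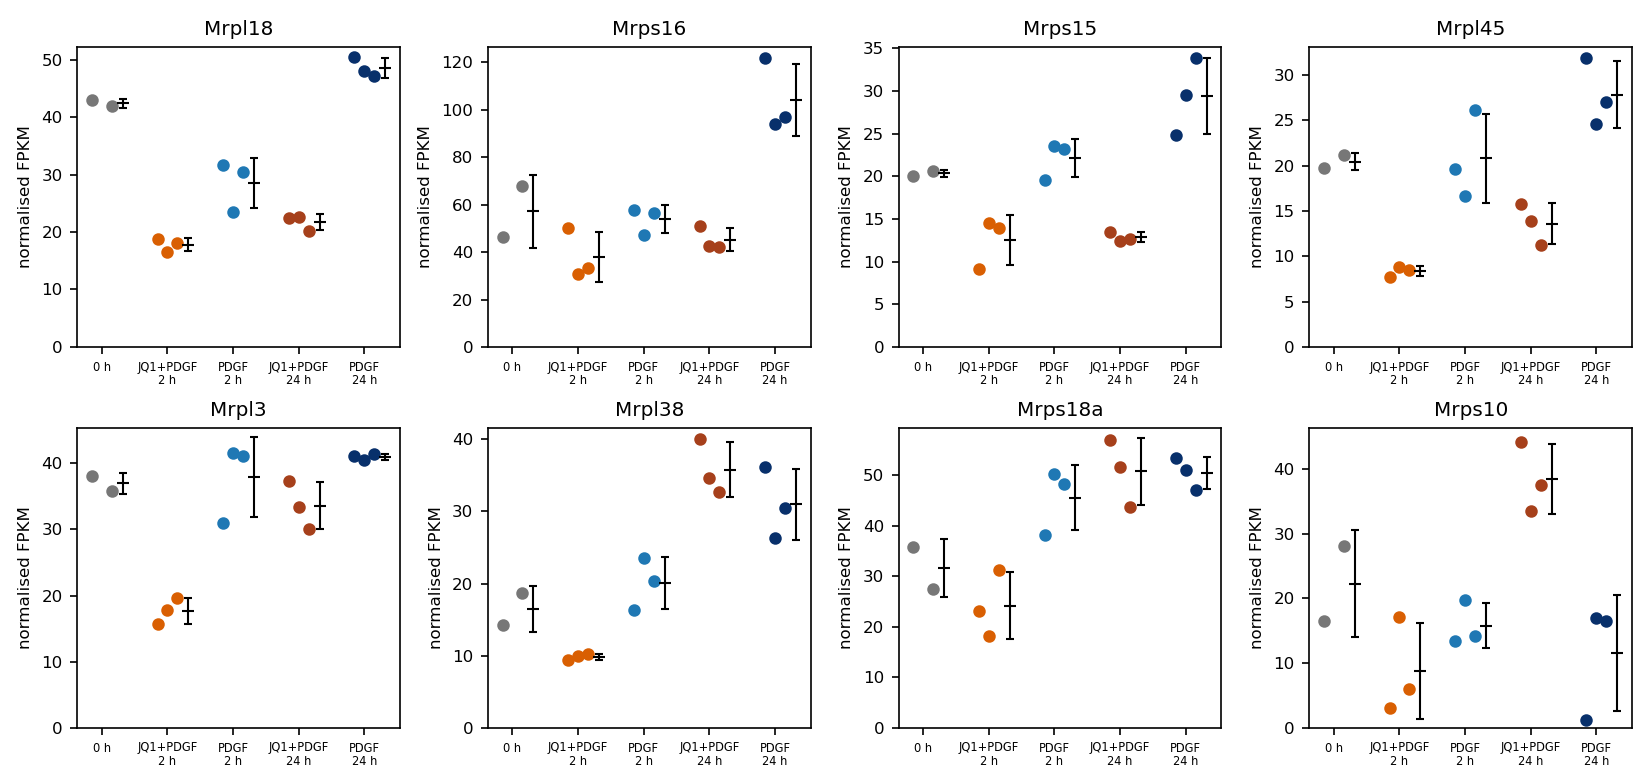
Normalised FPKM in each library for 8 members, with group means; the 5 groups are unstimulated cells, JQ1 plus PDGF and PDGF at 2 h, and JQ1 plus PDGF and PDGF at 24 h. Mrpl18 with JQ1 lies at 22.4, 22.6 and 20.2 at 24 h, below the PDGF libraries, while Mrps10 with JQ1 lies above them and PDGF 24 h library 0 has 1.20.

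Crossing the times on the normalised scale, 19 members were called lower with JQ1 at both, 14 at 2 h and not at 24 h, and 3 at 24 h and not at 2 h (Mrpl48, Mrpl52 and Mrps21). Another 3 were called higher at 24 h and not called at 2 h (Mrpl41, Mrps10 and Mrps26), and 27 had no call at either time. After centring 3 were lower at both times (Mrpl37, Mrpl45 and Mrps15), 9 lower at 2 h and not called at 24 h, and 3 lower at 24 h and not called at 2 h (Mrpl18, Mrpl20 and Mrps16). There 4 were higher at both times, 1 at 2 h and 15 at 24 h with no call at the other time, and 28 had no call. The remaining 3, Mrpl38, Mrps18a and Mrps34, were called lower at 2 h and higher at 24 h on the median-centred scale. The same classes were not counted over all genes tested, of which 34.0% were lower with JQ1 at 2 h and 48.5% at 24 h. After centring these shares were 21.5 and 25.8%. The counts above are therefore a description and not a result about the members. A call at 1 time and not at the other does not show a difference, so the difference of the JQ1 differences was tested itself. The JQ1 difference at 24 h was above that at 2 h for 7 of 66 members (4.82% of all genes tested) and below it for 0 (17.5%), and the median was 0.16 for the members, against −0.22 for all genes. On the median-centred scale 16 were above (13.5% of all genes tested), with all 7 among them, and 0 below (16.4%), with a median of 0.37 against −0.03. The direction of this contrast was therefore the same on both scales. By limma 4 members lay below at an unadjusted p under 0.05, and 1 was called below without PDGF 2 h library 0 or 2, or without JQ1 plus PDGF 24 h library 0.

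The 7 members were Mrps10, Mrpl38, Mrps18a, Mrpl34, Mrpl3, Mrps34 and Mrpl12. Mrpl38 had 9.41, 9.90 and 10.2 normalised FPKM with JQ1 plus PDGF at 2 h, against 16.4, 23.5 and 20.4 with PDGF, and 40.0, 34.7 and 32.7 with JQ1 plus PDGF at 24 h, against 36.1, 26.3 and 30.5 with PDGF. JQ1 libraries were the lower ones at 2 h without overlap and overlapped with PDGF at 24 h, and the difference of the differences was 1.16 ± 0.23 (limma, adjusted p = 0.00189). The centred JQ1 difference of Mrpl38 was −0.65 at 2 h (limma adjusted p = 0.000692) and 0.72 at 24 h (adjusted p = 0.000232). Mrps18a had 23.1, 18.2 and 31.2 normalised FPKM with JQ1 plus PDGF at 2 h, against 38.1, 50.2 and 48.3 with PDGF. At 24 h it had 56.8, 51.6 and 43.7 with JQ1 plus PDGF, against 53.4, 51.0 and 47.1 with PDGF, where the ranges overlapped (0.91 ± 0.25, adjusted p = 0.0162), and its centred differences were −0.60 at 2 h and 0.52 at 24 h, both called. Mrpl3 had 37.3, 33.3 and 30.1 normalised FPKM with JQ1 at 24 h, against 41.0, 40.5 and 41.4 with PDGF, closer to each other than at 2 h (0.77 ± 0.19, adjusted p = 0.00937). Mrps34, a mitochondria-specific protein of the small subunit, had 26.3, 28.9 and 33.0 normalised FPKM with JQ1 at 2 h, against 41.2, 59.3 and 49.6, and 64.2, 57.0 and 57.8 with JQ1 at 24 h, against 62.2, 56.7 and 57.3 (0.76 ± 0.19, adjusted p = 0.00839). Its centred differences were −0.42 at 2 h and 0.54 at 24 h, both called. Mrps10 had 3.11, 17.2 and 6.0 normalised FPKM with JQ1 at 2 h, against 13.5, 19.8 and 14.2, a wide spread in which no call was made (−1.04, adjusted p = 0.204). Its difference of differences was 3.19 ± 0.90 (adjusted p = 0.0183), and 2.18 (adjusted p = 0.0171) without PDGF 24 h library 0. Without that library Mrpl34 and Mrpl12 were no longer called, and Mrpl12 (0.47 ± 0.16, adjusted p = 0.0399) lost its call in 10 of 12 fits that left out 1 library, PDGF 2 h library 1 among them (0.46).

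**Figure D4:**
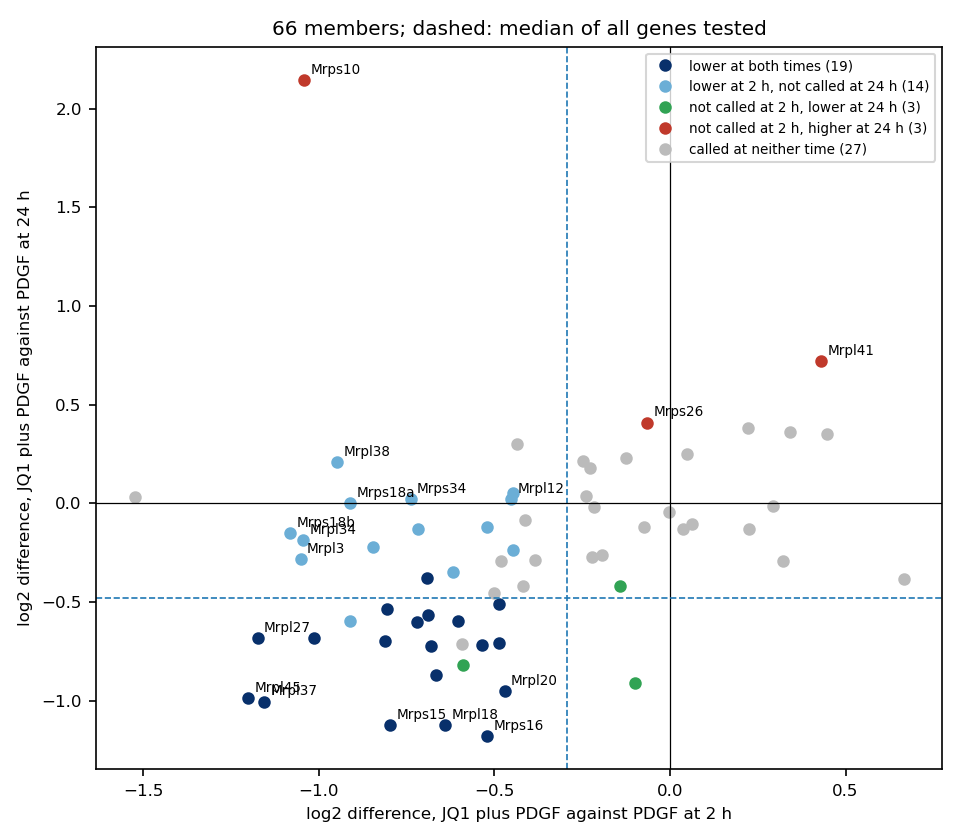
Log2 difference of JQ1 plus PDGF against PDGF at 2 h (horizontal axis) and at 24 h (vertical axis) for the 66 tested members on the normalised FPKM scale; dashed lines mark the medians of all genes tested, −0.29 at 2 h and −0.48 at 24 h. Mrps10 lies far above the other members at 24 h (2.15), and Mrpl18, Mrps15 and Mrps16 lie lowest there.

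Called members came from both subunits. With JQ1 at 2 h 21 of 40 large-subunit members and 11 of 25 small-subunit members were called lower and 0 higher (34.0% of all genes tested lower), with medians of −0.48 and −0.50. After median centring 9 large-subunit members were lower and 4 higher, and 6 small-subunit members lower and 1 higher. At 24 h 14 of 40 and 7 of 25 were called lower, with 1 and 2 higher (48.5% of all genes tested lower), and medians of −0.25 and −0.29. Centring turned this round, to 4 lower and 13 higher in the large subunit and 2 lower and 9 higher in the small one. With PDGF at 24 h against 2 h 27 of 40 and 15 of 25 were called higher (44.5% of all genes tested), with medians of 0.57 and 0.63, and after centring 11 were higher and 3 lower in the large subunit and 4 higher and 2 lower in the small one. Members with a bacterial counterpart were called lower with JQ1 at 2 h in 23 of 40 cases and mitochondria-specific members in 9 of 25, and at 24 h in 14 of 40 and 7 of 25. After centring the bacterial class had 11 lower and 2 higher at 2 h and 4 lower and 10 higher at 24 h, and the mitochondria-specific class 4 lower and 3 higher and then 2 lower and 12 higher. Over all genes tested 21.5% were lower and 20.1% higher with JQ1 at 2 h after centring, and 25.8 and 23.1% at 24 h. With PDGF at 24 h against 2 h 26.6% were higher and 25.8% lower after centring. Whether the subunits or the classes differ was not tested. The genes Mrps18a, Mrps18b and Mrps18c are relatives of 1 bacterial small-subunit gene, and Mrps18a alone of them sits in the large subunit. With JQ1 at 2 h their log2 differences were −0.91, −1.08 and −0.91, all called on the normalised scale, and at 24 h they were 0.00, −0.15 and −0.60, none called. After centring they were −0.60, −0.77 and −0.62 at 2 h, the last not called (limma adjusted p = 0.0997), and 0.52, 0.37 and −0.09 at 24 h, where Mrps18a was called higher (adjusted p = 0.0225). The call of Mrps18c at 2 h was lost without JQ1 plus PDGF 2 h library 1 (−0.61). Mrps18b had 14.2, 12.5 and 16.9 normalised FPKM with JQ1 at 2 h, against 44.7, 17.9 and 39.3 with PDGF, where PDGF 2 h library 1 was the lowest.

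**Figure D5:**
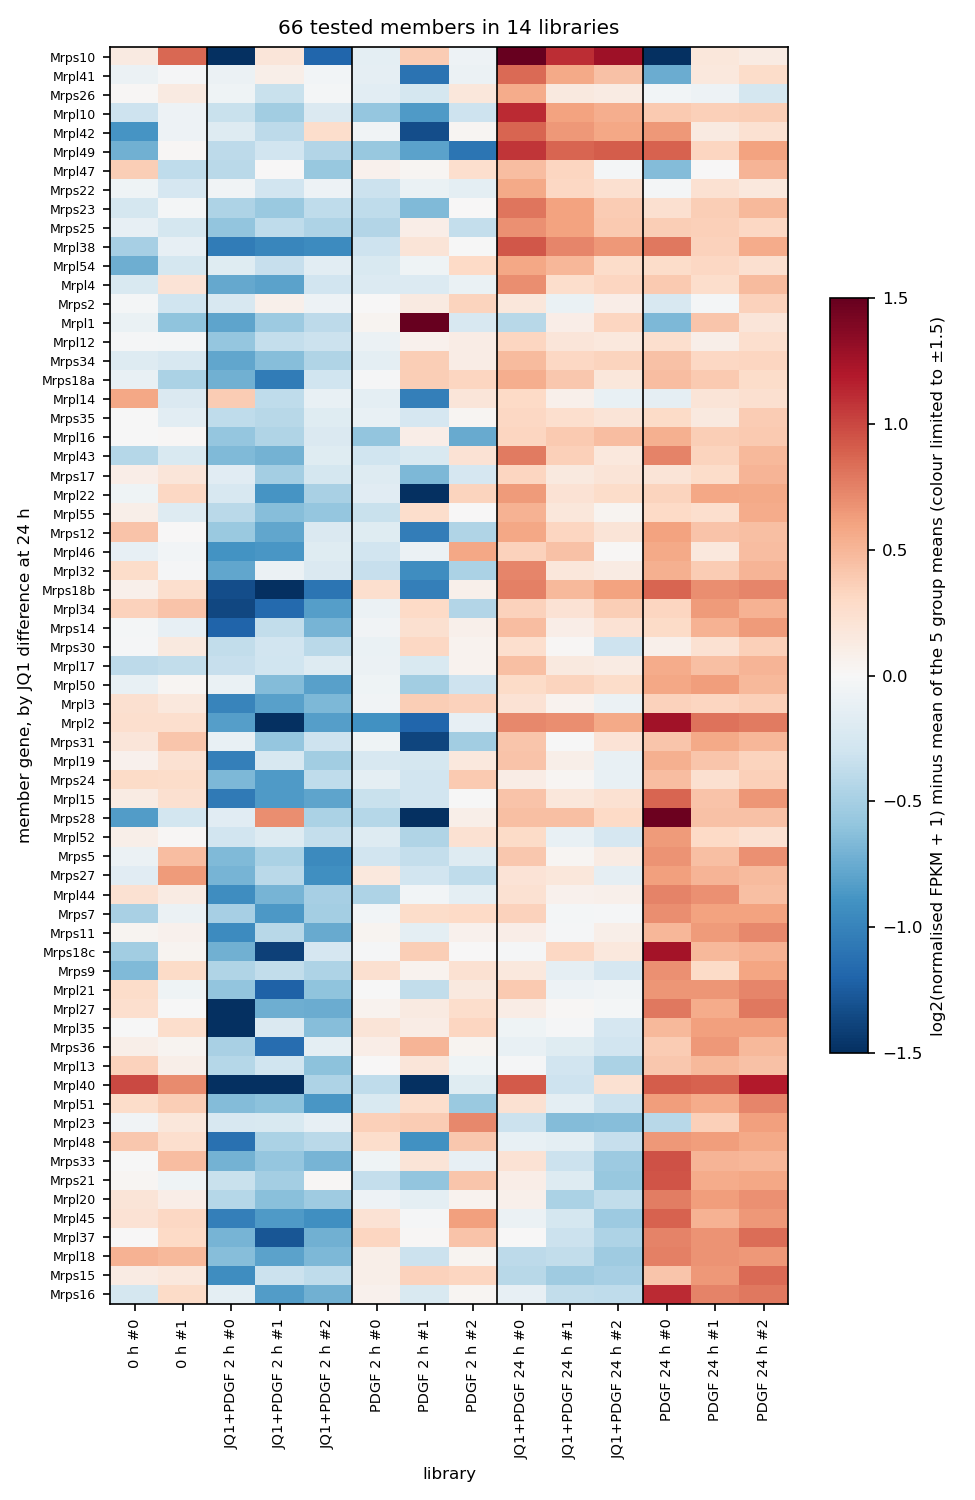
Level of the 66 tested members (rows) in the 14 libraries (columns) as log2(normalised FPKM + 1) minus the mean of the 5 group means, with colours limited at ±1.5; rows are ordered by the JQ1 difference at 24 h. By group mean of normalised FPKM 51 members are lowest with JQ1 plus PDGF at 2 h and 46 are highest with PDGF at 24 h (35 and 11 after median centring, where 34 are highest with JQ1 plus PDGF at 24 h), and Mrps10 stands at one end. The same was not counted over all genes tested, whose median log2 difference was −0.29 for JQ1 at 2 h and 0.41 for PDGF at 24 h against 0 h.

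The motifs were counted in promoters grouped by the JQ1 calls on the normalised scale. Of 14 members with a promoter that were lower at both times, the ETS motif was in 3, the YY1 motif in 2, the NRF1 motif in 2 and the E-box in 0. Of 11 called lower at 2 h and not at 24 h, the counts were 5, 4, 1 and 3, and of 22 with a promoter that were lower at neither time they were 4, 6, 3 and 1. In the 2 promoters of members lower at 24 h and not called at 2 h they were 2, 1, 0 and 0. These counts are small and were not tested. Among the members that face another gene, Mrpl46 and Mrps11 were both called lower with JQ1 at 2 h (−0.72 and −0.69), while at 24 h the differences were −0.13, not called, and −0.57, called. After centring the 1 call left among these 4 was Mrps11 at 2 h (−0.38). Mrpl18 lies 425 bases from the start of Tcp1, which encodes a cytosolic chaperonin subunit. With JQ1 at 2 h both were called lower (−0.64 for Mrpl18 and −0.35 for Tcp1), and neither was after centring (−0.33 and −0.01). At 24 h with JQ1 Mrpl18 was lower (−1.12) and Tcp1 was not called (0.12, limma adjusted p = 0.441), whereas after centring Mrpl18 was lower (−0.61) and Tcp1 higher (0.62), both called. Mrps18b lies 588 bases from Ppp1r10, and with JQ1 at 2 h the differences were −1.08 and −0.35, both called on the normalised scale (−0.77, called, and −0.03, not called, after centring). Mrpl41 and Pnpla7 had differences of 0.72 and −0.81 with JQ1 at 24 h, both called on the normalised scale and opposite in sign (1.24, called, and −0.37, not called, after centring).

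The cytosolic ribosomal protein genes, 82 rows with 76 tested, were set beside the members as another family of ribosomal protein genes. With JQ1 at 2 h 5 of 76 were called lower and 0 higher, with a median of −0.21, against 33 of 66 members with a median of −0.49. At 24 h 24 of 76 were called lower and 0 higher, with a median of −0.33, against 22 of 66 members with a median of −0.27. After median centring 12 cytosolic genes were higher and 1 lower with JQ1 at 2 h, against 5 and 15 members. The 12 are 15.8% of those tested, against 20.1% of all genes tested. At 24 h 18 cytosolic genes were higher and 5 lower, against 22 and 6 members, so both families had more higher than lower calls there. The 18 are 23.7%, against 23.1% of all genes tested. With PDGF at 24 h against 2 h 3 of 76 were called higher and 0 lower, with a median of 0.00, against 42 of 66 members with a median of 0.58. On the median-centred scale 1 cytosolic gene was higher and 41 lower in that comparison, against 15 and 5 members. For the JQ1 difference at 24 h against 2 h 0 cytosolic genes were above and 3 below, with a median of −0.13, against 7 and 0 members (1 and 3, against 16 and 0 members, after centring). Over all genes tested 34.0% were lower with JQ1 at 2 h and 48.5% at 24 h (21.5 and 25.8% after centring). With PDGF at 24 h against 2 h 44.5% were higher and 11.8% lower (26.6 and 25.8% after centring). For the JQ1 difference at 24 h against 2 h 4.82% were above and 17.5% below (13.5 and 16.4% after centring). The difference between the families was not tested, and they share all libraries.

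The proteins of the mitochondrial ribosome with other names (7 genes) included lower genes with JQ1. At 2 h 4 of 7 were called lower and 0 higher (34.0 and 7.24% of all genes tested), and 3 and 1 after median centring (21.5 and 20.1%). At 24 h 3 were lower and 0 higher (48.5 and 4.61%), and 0 and 2 after median centring (25.8 and 23.1%). Chchd1, a small-subunit protein, had 36.2, 26.8 and 40.4 normalised FPKM with JQ1 plus PDGF at 2 h, against 82.1, 104 and 87.6 with PDGF. The groups lay far apart (−1.39 ± 0.16, limma adjusted p = 7.22e-06), and Chchd1 was the 1 gene of the 7 with a called difference between the times (1.15). Gadd45gip1 was lower at both times (−1.0 at 2 h and −0.83 at 24 h, the second −0.32 and not called after median centring), as was Aurkaip1 (−0.86 and −0.51, the second 0.00 after centring). With PDGF at 24 h against 2 h 5 of the 7 were called higher and 0 lower (44.5 and 11.8% of all genes tested). After median centring 4 were higher and 1 lower (26.6 and 25.8%). Against 0 h 5 were higher at 24 h and 0 lower (37.7 and 4.85%), and 1 and 0 after centring (14.8 and 13.4%). Dap3, a GTP-binding small-subunit protein also linked to apoptosis, was higher with PDGF at 24 h than at 2 h (0.71, and 0.31 after median centring, called on both scales). Against 0 h it was higher at 24 h on the normalised scale alone (0.47, but 0.02 and adjusted p = 0.905 after centring, limma), and with JQ1 at 24 h it was lower there (−0.42, but 0.09 after centring, not called).

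Factors that build and serve this ribosome included genes that were lower with PDGF at 2 h and higher at 24 h. Of 13 tested assembly factors 4 were called lower at 2 h against 0 h and 0 higher, of 14 translation factors 6 and 0, and of 15 mitochondrial aminoacyl-tRNA synthetases, which charge the tRNAs, 8 and 0 (12.7% of all genes tested were lower). After median centring 4, 6 and 9 were lower and 0 higher (19.4% of all genes tested were lower). Among those called lower were Lars2 (−1.38), the initiation factor gene Mtif2 (−1.32) and Taco1 (−1.30), an activator of cytochrome oxidase translation. At 24 h against 2 h 8 of 13 assembly factors, 13 of 14 translation factors and 11 of 15 synthetases were called higher and 0 of each lower (44.5% of all genes tested were higher), and after median centring 5, 5 and 7 were higher and 0 lower (26.6% of all genes tested were higher). Taco1 (1.69), Lars2 (1.59) and Mtfmt (1.58), which formylates the initiator tRNA, were among them. With JQ1 at 2 h 5 of 13 assembly factors were lower and 2 higher, 5 of 14 translation factors lower and 0 higher, and 6 of 15 synthetases lower and 2 higher (34.0% of all genes tested lower and 7.24% higher). After centring these counts were 4 and 2, 2 and 3, and 3 and 2 (21.5% of all genes tested lower and 20.1% higher). Fastkd2, an RNA-binding assembly factor, was lower with JQ1 at 2 h (−1.66 ± 0.26, limma adjusted p = 0.000163), as was the assembly GTPase gene Gtpbp10 (−1.32). The helicase gene Ddx28 (0.62) and the GTPase gene Noa1 (0.59) were higher. At 24 h the counts with JQ1 were 3 lower and 1 higher, 5 and 0, and 6 and 0, in the same order of lists (48.5% of all genes tested lower and 4.61% higher). After median centring they turned to 0 lower and 4 higher, 1 and 2, and 0 and 3 (25.8% of all genes tested lower and 23.1% higher). The 1 higher on the normalised scale was Mpv17l2, an inner membrane protein. It had 117, 96.1 and 104 normalised FPKM with JQ1, against 63.8, 55.3 and 50.9 with PDGF (0.89 ± 0.24, limma adjusted p = 0.00528).

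A list for mitochondrial DNA and its transcription had 9 tested genes, among them the protease gene Lonp1. Of these 9, 2 were called higher and 1 lower with JQ1 at 2 h (7.24 and 34.0% of all genes tested). After median centring 3 were higher and 0 lower (20.1 and 21.5%). At 24 h 2 were higher and 0 lower (4.61 and 48.5%), and after median centring 6 and 0 (23.1 and 25.8%). Tfam, the main packaging and transcription factor of mitochondrial DNA, was higher with PDGF at 24 h than at 2 h on the normalised scale (0.68, but 0.30 and not called after centring) and had no other call. Polrmt, the mitochondrial RNA polymerase, had none on that scale and was higher with JQ1 at 24 h after centring (0.70). Among 7 tested nuclear regulators of mitochondrial genes, 3 were higher with PDGF at 2 h and 0 lower (17.7 and 12.7% of all genes tested). The 3 were Pprc1 (1.40), a coactivator, Nrf1 (1.03) and Myc (0.82). After median centring 5 of the 7 were higher and 0 lower in this comparison (20.4 and 19.4% of all genes tested). With PDGF at 24 h against 2 h 2 were higher and 3 lower (44.5 and 11.8%). After centring 0 were higher and 5 lower there (26.6 and 25.8%). With JQ1 at 2 h 4 of 7 were lower and 0 higher (34.0 and 7.24% of all genes tested), namely Pprc1 (−0.78), Gabpb1 (−0.58), Yy1 (−0.55) and Gabpa (−0.51). PDGF 2 h library 1 was the highest of its group for Nrf1 (17.5 normalised FPKM, against 7.76 and 11.3) and for Gabpb1 (15.2, against 8.18 and 12.3). At 24 h Gabpa (−0.80), Esrra (−0.65) and Yy1 (−0.56) were lower and Myc (0.62) was higher (48.5 and 4.61% of all genes tested). After median centring 1 of the 7 was lower with JQ1 at 2 h, Pprc1 (−0.48), and 1 higher (21.5 and 20.1% of all genes tested). At 24 h 0 were lower and 4 higher there (25.8 and 23.1%), Myc (1.14) among them. Ppargc1a, a coactivator of mitochondrial genes, was listed at 0 throughout and was not tested. These levels are set beside those of the members, and whether they act on them was not tested.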

How the data were processed

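Polyadenylated RNA of 14 libraries was read as 40 base single ends with a stranded kit, per the labels' protocols. The authors deposited 1 table of unnormalised FPKM and 1 of normalised FPKM, each with 1 column per library. The submitters' processing notes name HISAT, Cufflinks 2.0.0 and the build rn6. The annotation and the method of normalisation are not given in the sources used here. From the values, the normalised FPKM are the unnormalised FPKM moved along a curve fitted per library, after which the spike-ins lie closer together. Over the members that curve moved the median from −0.36 (log2, JQ1 plus PDGF 2 h library 0) to 0.45 (PDGF 24 h library 2). Depth is unknown, since FPKM keep no counts, and a 0 may be a failed estimate. No column lacked a group (0).

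Genes with at least 1 normalised FPKM in at least 2 libraries (10133) were tested with limma 3.58.1 (R 4.3.3) after the transform log2(normalised FPKM + 1), in 1 model over 5 groups with a mean trend. Adjusted p-values are Benjamini-Hochberg over all genes tested, with a threshold of 0.05. For the median-centred scale, median-of-ratios size factors were divided out of the unnormalised FPKM. Tables were made in Python 3.11.15 with pandas 2.3.3, and the code was checked on simulated data. Alternatives were other pseudocounts and filters, no mean trend, separate fits, the unnormalised table and leaving out each library.

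The members and gene lists were chosen with earlier results of these data known. Named genes were, in each comparison, the 10 highest and 10 lowest members past the threshold (3 and 3 for the difference of the JQ1 differences), the 5 highest and 5 lowest levels, up to 4 members of each list, and a set of fixed names. Of the fixed names Mrps6 had no row, and 12 list symbols had none. Other names were chosen after their values were seen. Roles and subunits come from general knowledge of mammalian ribosomes, and 68 of the 69 symbols matched RefSeq. Sequences are from the RefSeq promoter table (GRCr8), and no rn6 coordinates are printed.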

Additional observations from a re-analysis of the deposited data

Results flagged for a closer look

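The JQ1 difference at 24 h was set against that at 2 h by a test of the difference itself in the limma fit (Benjamini-Hochberg adjusted over all genes tested). It was above that at 2 h for 7 of 66 members (4.82% of all genes tested) and below it for 0 (17.5%), where 4 lay below at an unadjusted p under 0.05. After median centring 16 were above (13.5% of all genes tested) and 0 below (16.4%). On the normalised scale, leaving out single libraries gave 5 to 8 above and 0 or 1 below. The largest of these differences were 3.19 for Mrps10, 1.16 for Mrpl38 and 0.91 for Mrps18a. For Mrps10 the value was 2.18 without PDGF 24 h library 0. The calls of Mrpl38 and Mrps18a held with any single library left out.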

How the results depend on the processing

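No paired analysis was possible because the columns carry digits and the sample titles letters. The scale moved most of the counts. On the median-centred scale, and alike on the unnormalised FPKM as deposited, the members called were 12 lower for PDGF at 2 h, 3 higher and 2 lower for 24 h against 0 h, 15 and 5 for 24 h against 2 h, 5 and 15 for the earlier JQ1 time, 22 and 6 for the later one, and 16 higher for the difference of the JQ1 differences. Centring together with leaving out PDGF 2 h library 1, chosen after seeing the data, gave 3 and 3 for 24 h against 0 h, 9 and 4 for 24 h against 2 h, 4 and 19 for the earlier JQ1 time, 25 and 6 for the later one, and 21 higher. Fits of the compared groups alone gave 0 and 3 for PDGF at 2 h and 5 higher for JQ1 at 24 h. Without a filter 1 was higher for PDGF at 2 h and 1 lower for the difference of differences, and without a mean trend 0 were higher for PDGF at 2 h. Without both libraries that stood apart 4 were lower for PDGF at 2 h. The cause of these shifts was not tested.

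Leaving out each library gave ranges of 0 to 4 higher and 2 to 9 lower for PDGF at 2 h, 7 to 20 higher and 0 lower for 24 h against 0 h, and 35 to 44 higher and 0 to 1 lower for 24 h against 2 h. For JQ1 they were 0 to 2 higher and 26 to 31 lower at 2 h, 1 to 4 higher and 16 to 25 lower at 24 h, and 5 to 8 higher and 0 to 1 lower for the difference of differences. Signs reversed for Mrpl3 in 24 h against 0 h (−0.30 centred, −0.30 as deposited), for Mrpl12 in 24 h against 2 h (−0.22 in each, and −0.22 with centring and without PDGF 2 h library 1 together) and for Mrpl3 in 24 h against 2 h (−0.27 in each). Centring without PDGF 2 h library 1 also reversed JQ1 at 24 h for Mrpl3 (0.23) and Mrps18b (0.37). Members with low levels, such as Mrpl1 and Mrpl40, rest on few reads, whose number is unknown.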
